A study of Homo sapiens with 15 samples.

Results

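The genes described here are 30 well-known transcriptional targets of the tumour suppressor p53, taken by name from the 26364 gene rows of an expression table. Their transcripts were followed in the human myeloma line RPMI-8226, an established plasma cell tumour line, after addition of KB528, which the labels name as an inhibitor of the lysine acetyltransferase (KAT) activity of p300. All 30 were found in the table, and 27 reached the mean of 1 TPM (a transcript abundance already divided by transcript length and library size) needed for the main test. The other 3, GDF15, PLK2 and TP53I3, are described by their reads and by fits without that filter. One of the 27, PHLDA3, reached that mean only through its level at 1 h and 3 h.

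RPMI-8226 cells of the genotype labelled WT received 100 nM KB528 for 1, 3, 6 or 24 h, or DMSO, the solvent control, labelled 0 h. Each of the 5 groups held 3 libraries of polyadenylated RNA, 15 in all. All groups share the same unmodified line, so that no genetic control for p300 is included, and only 1 dose was used. The labels do not name a separate culture for each library, and p-values therefore measure the spread between libraries, which may be technical. All DMSO libraries belong to 1 time, so handling and time in culture cannot be told apart from KB528, and the 4 comparisons with DMSO share these 3 libraries. In bulk RNA, fewer cells expressing a gene and less RNA per cell cannot be told apart either.

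p53 is a transcription factor that is stabilised by DNA damage and other stress and that switches on genes for cell-cycle arrest, cell death, DNA repair and metabolism. It also switches on its own inhibitors, among them MDM2, the ubiquitin ligase that directs p53 to degradation, so that the response is held in a feedback loop. p300 and its paralogue CBP are coactivators that bind p53, acetylate it and acetylate histones at its target genes. Many genes called p53 targets also respond to other factors, including the stress factor ATF4 and FOXO proteins. The name of the list therefore describes the genes and not the factor acting on them in these cells.

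p53 binds DNA as pairs of a short consensus half-site of 10 bases. Promoter sequences of 23 of the 30 genes were taken from RefSeq (build GRCh38.p14) as windows of 300 bases, 250 before and 50 after an annotated start, 34 windows in all. Both strands were searched at once, since the consensus is its own reverse complement. At least 1 exact half-site was found in 8 of the 34 windows, against 6.63% of the 35116 windows of all genes. These were 1 window each of AEN, DDB2, EI24, FAS, FDXR, PLK2, RPS27L and SESN1, and that of DDB2 held 2 exact half-sites. With 1 mismatch allowed outside the invariant C and G, 45.1% of all windows held one, so such a match is common. A pair with a spacer of at most 13 bases, of which at least 1 was exact, was found in 1 of the 34 windows, that of DDB2, against 0.402% of all. Both half-sites of the DDB2 pair are exact. The stretches below show the intronic start of MDM2 with its run of half-sites, the DDB2 pair, FAS and AEN with exact half-sites, and CDKN1A and BTG2, the genes with the largest rise and the largest fall on the log2(TPM + 1) scale. All lie on the plus strand, and capitals mark half-sites that are exact or have 1 mismatch.
MDM2, intronic start: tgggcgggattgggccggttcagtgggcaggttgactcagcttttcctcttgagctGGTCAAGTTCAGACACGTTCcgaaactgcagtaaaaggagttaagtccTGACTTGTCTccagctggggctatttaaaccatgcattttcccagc
DDB2, paired half-sites: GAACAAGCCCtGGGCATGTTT
FAS: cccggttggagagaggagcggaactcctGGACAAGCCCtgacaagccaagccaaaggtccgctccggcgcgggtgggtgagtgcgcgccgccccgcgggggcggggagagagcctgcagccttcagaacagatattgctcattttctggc
AEN: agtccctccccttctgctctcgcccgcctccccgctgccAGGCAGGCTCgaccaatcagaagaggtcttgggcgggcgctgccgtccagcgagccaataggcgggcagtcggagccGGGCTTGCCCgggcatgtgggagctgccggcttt
CDKN1A: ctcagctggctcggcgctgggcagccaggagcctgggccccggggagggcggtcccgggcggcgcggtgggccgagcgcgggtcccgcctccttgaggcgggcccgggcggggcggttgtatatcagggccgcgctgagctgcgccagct
BTG2: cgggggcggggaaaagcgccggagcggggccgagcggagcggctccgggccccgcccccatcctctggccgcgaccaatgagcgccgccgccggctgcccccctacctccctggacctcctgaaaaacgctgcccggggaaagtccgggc
The MDM2 stretch is chr12:68808867-68809016, the 150 bases before the start, and the DDB2 pair is chr11:47214979-47214999, within the transcribed part of the gene at positions 6 to 26 from the start. FAS is chr10:88991281-88991430, AEN chr15:88621190-88621339, CDKN1A chr6:36678564-36678713 and BTG2 chr1:203305369-203305518, each again 150 bases before a start. In MDM2, half-sites with 1 mismatch begin 94, 84 and 46 bases before the start, and the outer pair stand side by side without a spacer. FAS has its exact half-site 122 bases before the start, and AEN 34 bases before it with a half-site of 1 mismatch 111 bases before it. No half-site that is exact or has 1 mismatch was found in the whole 300-base window of CDKN1A or BTG2. Half-sites with more mismatches were not counted, so a weaker site in these windows would be missed. The known p53 sites of CDKN1A lie further upstream, outside this window. These matches are letters in the reference and not measured binding, and protein level, acetylation and DNA binding of p53 were not measured in these libraries.

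The table gave 11616 to 12356 genes of at least 1 TPM per library, and 12002 genes passed the filter on their mean and were tested. The values of nearly all genes were whole multiples of a step in each library, from which 39083836 to 59290255 gene reads per library were recovered. Libraries of 1 group correlated with r of 0.995 to 0.998 across genes, and those of different groups with 0.962 to 0.992. All 10 plasma cell markers examined were measured, with summed levels of 3918 to 4047 TPM in DMSO, 3737 to 3935 TPM at 1 h and 2035 to 2070 TPM at 24 h. Of 4 markers each, 1 of T cells, 1 of monocytes and 0 of fibroblasts reached a mean of 1 TPM, and the T cell genes CD3D and CD2 were at 0 in every library. Of 4 epithelial markers 3 did, with EPCAM at 113 TPM and KRT18 at 147 TPM in DMSO. Whether the fall of the plasma cell markers has a part in the changes of the p53 targets was not tested.

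At 1 h of KB528, 19 of the 27 tested p53 targets were higher than in DMSO and 2 were lower (limma, adjusted p under 0.05), where 15% of all genes tested were higher and 7.57% lower. The higher genes at 1 h and 3 h include PHLDA3, whose entry into the test depended on these groups. The median of the 27 log2 fold changes was 0.29, against 0.043 for all genes. At 3 h, 18 were higher and 4 lower, with 24.9% of all genes higher and 32% lower, and the medians were 0.36 and -0.042. Without DMSO replicate 2 the count lower at 3 h was 7, beside 4303 of all 12002 genes. At 6 h, 12 were higher and 6 lower beside 44.4% and 24.5% of all genes, and a median of 0.12 close to the 0.117 of all genes. At 24 h, 13 were higher and 8 lower beside 56.1% and 15.2% of all genes, and the median of 0.14 lay below the 0.227 of all genes. The share of these genes that was higher was thus above the background at 1 h and 3 h and near or below it at 6 h and 24 h. On the log2(TPM + 1) scale, CDKN1A at 1 h had the largest rise of the 27 against DMSO and BTG2 at 3 h the largest fall. As ratios of mean TPM, the largest rise was that of PHLDA3 at 1 h (38.5-fold) and the largest fall that of CDKN1A at 24 h (4.49-fold).

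The direct comparisons between consecutive times, in which the difference of means involves no DMSO library although the estimate of the spread does, gave the following counts. From 1 h to 3 h, 15 of the 27 fell and 2 rose, beside 31.8% and 15.2% of all genes. From 3 h to 6 h, 13 fell and 7 rose, whereas over all genes, without further scaling, increases prevailed, with 13.7% lower and 42.3% higher. From 6 h to 24 h, 10 fell and 8 rose, beside 26% and 41%. The background of the step from 3 h to 6 h depended on the scaling. Median-ratio scaling called 3103 of all 12002 genes higher and 3600 lower there, and spike-in scaling 7362 and 232. A voom fit on recovered reads called 3771 of 17452 genes higher and 3468 lower. The counts of p53 targets in these fits are given at the end. The mean level was highest at 1 h for 16 of the 27 genes, at 3 h for TRIAP1 and TIGAR, for BTG2, EI24, ZMAT3 and POLH at 6 h, for DDB2, RRM2B, FDXR and RPS27L at 24 h, and in DMSO for GADD45A. The 16 include MDM4, TNFRSF10A and CD82, which were not called at 1 h, and PHLDA3, whose entry into the test depended on 1 h and 3 h. The time of the highest mean was not computed over all genes, so the 16 cannot be set against a background share.

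**Figure D1:**
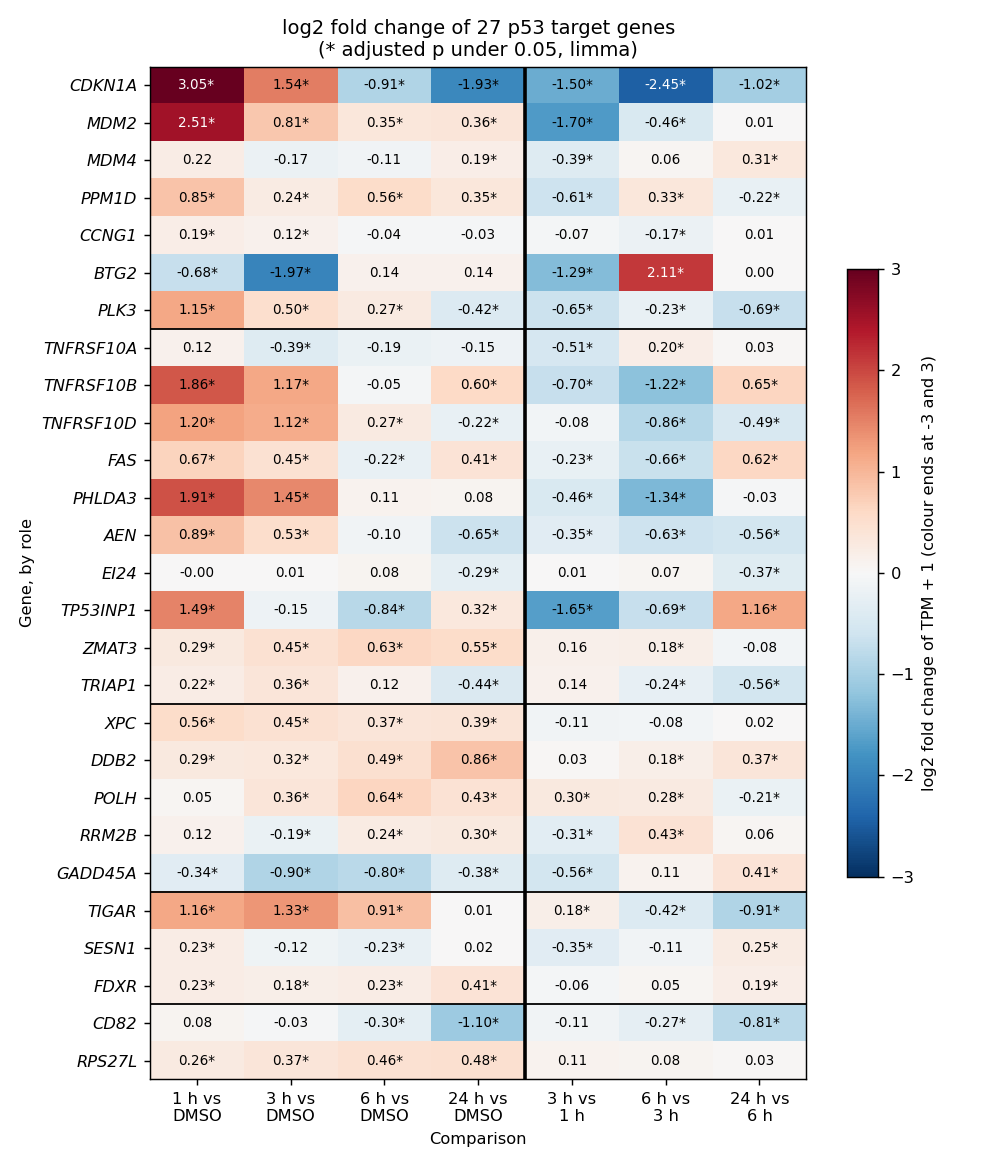
Heat map of the log2 fold change of TPM + 1 for the 27 tested p53 target genes, with genes in rows ordered by role and comparisons in columns, and an asterisk where limma's adjusted p was under 0.05. The column for 1 h holds 19 higher and 2 lower genes, led by CDKN1A at 3.05 and including PHLDA3, which passed the filter only through 1 h and 3 h, and the column for 24 h holds 13 higher and 8 lower, with CDKN1A at -1.93.

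These counts depended on the scaling. Under median-ratio scaling, which moved the level of all genes by -0.16 log2 units at 6 h and -0.20 at 24 h, 8 p53 targets were higher and 11 lower at 6 h, and 10 were higher and 12 lower at 24 h. Scaled to the spike-in RNAs, whose factors differed between libraries of 1 group by an SD of 0.12 to 0.32 log2 units, 11 were higher and 1 lower at 1 h, 6 and 3 at 3 h, and 8 and 3 after 6 h, while 3 were higher and 3 lower after 24 h. Of all called genes, 66.5%, 43.8%, 64.4% and 78.7% were higher at 1, 3, 6 and 24 h. These shares were 50.9%, 44.9%, 46.5% and 55.4% under median-ratio scaling and 73.9%, 14%, 80.5% and 78.8% under spike-in scaling. Among the 12002 genes tested, median-ratio scaling called 3922 as increased and 4504 as decreased after 6 h. After 24 h it called 4458 as increased and 3594 as decreased. Spike-in scaling called 348 genes as increased and 123 as decreased after 1 h. The later pairs were 411 with 2523 after 3 h, 4118 with 995 after 6 h, and 2439 with 657 after 24 h.

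The 7 genes of cell-cycle arrest and p53 feedback included 5 higher and 1 lower at 1 h, beside 15% and 7.57% of all genes. CDKN1A encodes p21, the inhibitor of cyclin-dependent kinases through which p53 arrests the cell cycle. Its levels were 17.0, 17.0 and 21.3 TPM in DMSO, 156, 157 and 163 TPM at 1 h, 56.6, 53.8 and 55.4 TPM at 3 h, 8.93, 9.31 and 9.67 TPM at 6 h, and 4.64, 3.82 and 3.86 TPM at 24 h. No 2 of these 5 groups overlapped, and the order from high to low was 1 h, 3 h, DMSO, 6 h and 24 h. CDKN1A rose 8.61-fold at 1 h (log2 fold change 3.05 ± 0.077 SE, n = 3 against 3, adjusted p = 3.17e-13, limma) and was still 3.00-fold higher at 3 h (1.54, adjusted p = 3.36e-10). It was 1.98-fold below DMSO at 6 h (-0.91, adjusted p = 8.07e-08) and 4.49-fold below at 24 h (-1.93, adjusted p = 5.33e-11). Between 1 h and 24 h its mean fell 38.7-fold, from 159 to 4.10 TPM.

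MDM2 was above the control at all 4 times. It stood at 11, 9.63 and 11.3 TPM in DMSO, 63.8, 65.0 and 66.6 TPM at 1 h, 18.9, 19.1 and 20.1 TPM at 3 h, 13.4, 13.5 and 14.3 TPM at 6 h, and 14.2, 13.4 and 14.1 TPM at 24 h. Every treated library lay above every DMSO library, and the 6 h and 24 h groups overlapped. The rise was 6.13-fold at 1 h (2.51 ± 0.056 SE, n = 3 against 3, adjusted p = 8e-14, limma) and 1.31-fold at 24 h (0.36, adjusted p = 4.2e-05), and 6 h and 24 h did not differ beyond the spread (0.01, adjusted p = 0.851). PPM1D, the phosphatase WIP1 that switches the damage response off, rose from 8.56 to 16.2 TPM at 1 h (0.85) and was higher at 3 h (0.24), 6 h (0.56) and 24 h (0.35). Its 3 h call was lost without replicate 3 of that group (0.15). MDM4, the partner of MDM2 that blocks p53's activation domain, was 9.04 TPM in DMSO and 7.89 to 10.6 TPM thereafter, and it passed the test at 24 h alone (0.19, adjusted p = 0.0466), a call that 5 of 6 left-out libraries ended.

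BTG2, an antiproliferative adaptor of mRNA deadenylation and a classical early p53 target, went the other way. Its levels were 109, 104 and 129 TPM in DMSO, 71.8, 70.1 and 69.5 TPM at 1 h, 27.9, 27.4 and 29.4 TPM at 3 h, 120, 128 and 128 TPM at 6 h, and 126, 126 and 124 TPM at 24 h. The 1 h and 3 h groups lay apart below DMSO, and the 6 h and 24 h groups lay within its range. BTG2 fell by 0.68 on the log2 scale at 1 h (± 0.062 SE, n = 3 against 3, adjusted p = 1.48e-06, limma) and by 1.97 at 3 h (adjusted p = 3.66e-12), a 4.04-fold reduction, then regained 2.11 between 3 h and 6 h (adjusted p = 3.77e-12).

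PLK3, a stress-responsive polo-like kinase, measured 33.6, 30.6 and 41.1 TPM in DMSO, 78.7, 77.2 and 80.0 TPM at 1 h, 51.3, 45.5 and 52.9 TPM at 3 h, 40.9, 41.2 and 45.2 TPM at 6 h, and 27.2, 25.7 and 24.5 TPM at 24 h. The groups at 1 h and 3 h lay above DMSO, the group at 6 h overlapped it, and the group at 24 h lay below it. PLK3 rose by 1.15 at 1 h (± 0.085 SE, n = 3 against 3, adjusted p = 1.44e-07, limma) and fell by 0.42 at 24 h (adjusted p = 0.000424). Its 6 h value of 0.27 (adjusted p = 0.00984) was no longer called without DMSO replicate 2 (0.18) or under median-ratio scaling. CCNG1, cyclin G1, changed little, with 0.19 at 1 h and 0.12 at 3 h, and each of these calls was lost when single libraries were left out.

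**Figure D2:**
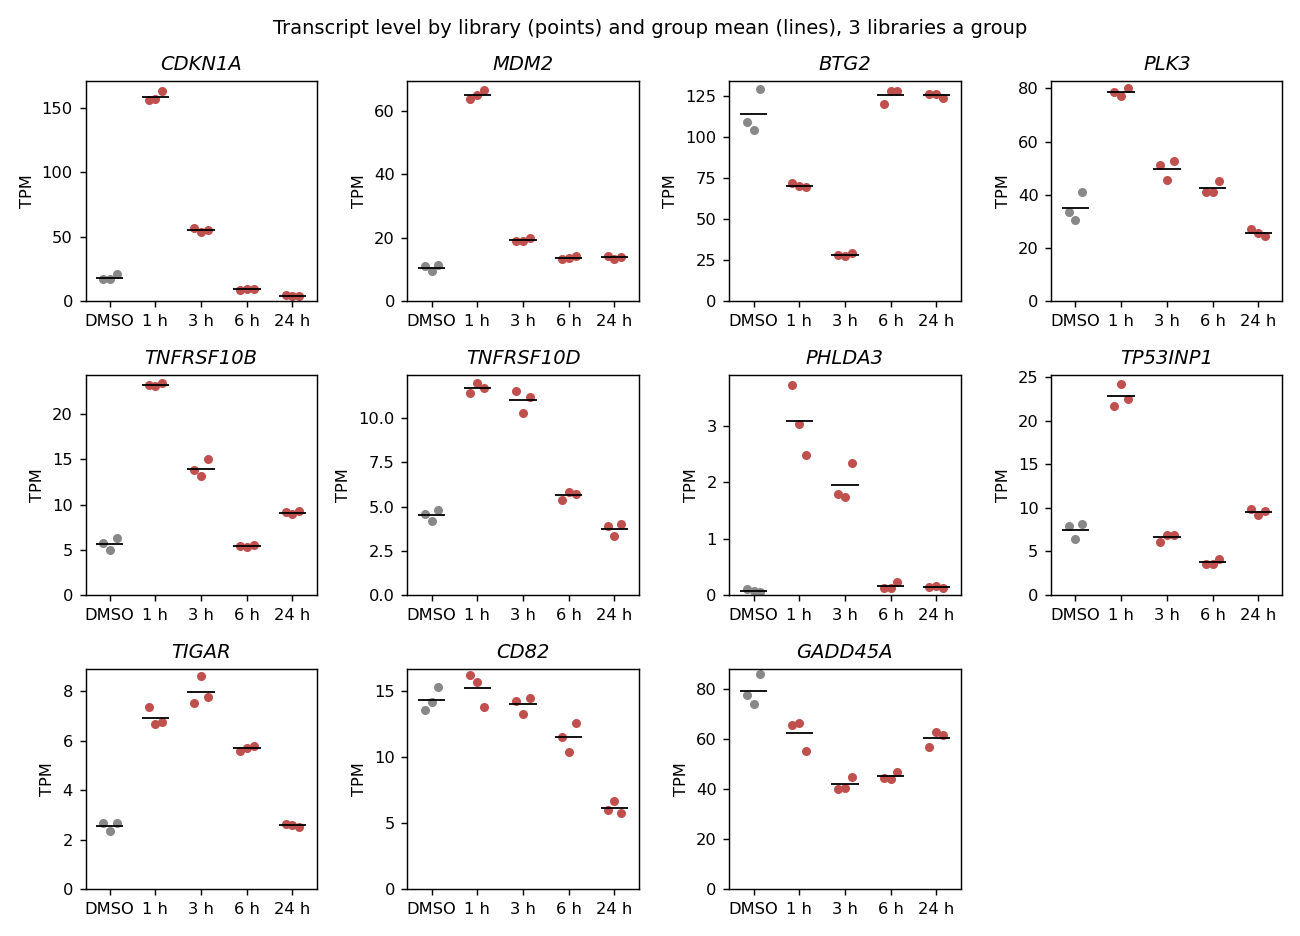
Transcript level in TPM of the genes whose values in every library are given in the text, with 1 panel per gene, points for the 15 libraries and horizontal lines at the group means, over DMSO and 1, 3, 6 and 24 h of KB528. CDKN1A and MDM2 peak at 1 h (means of 159 and 65.1 TPM), whereas BTG2 has its lowest mean at 3 h (28.2 TPM).

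Of the 10 tested genes of death receptors and cell death, 8 were higher at 1 h and 0 were lower, where 15% of all genes were higher and 7.57% lower. Both the 10 and the 8 include PHLDA3, whose entry into the test depended on its level at 1 h and 3 h. At 24 h, 4 were higher and 4 lower, where 56.1% of all genes were higher and 15.2% lower. TNFRSF10B, the TRAIL receptor DR5, which starts apoptosis when it binds its ligand, was at 5.76, 4.98 and 6.32 TPM in DMSO, 23.2, 23.1 and 23.4 TPM at 1 h, 13.8, 13.1 and 15 TPM at 3 h, 5.46, 5.35 and 5.51 TPM at 6 h, and 9.13, 8.94 and 9.25 TPM at 24 h. Its 6 h libraries lay within the DMSO range and all others above it. TNFRSF10B rose 4.09-fold at 1 h (1.86 ± 0.068 SE, n = 3 against 3, adjusted p = 3.98e-11, limma), was 1.05-fold below DMSO at 6 h without passing the test (-0.05, adjusted p = 0.529), and rose again by 0.65 between 6 h and 24 h (adjusted p = 6.92e-07).

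TNFRSF10D encodes a decoy TRAIL receptor that does not signal death. It was at 4.58, 4.19 and 4.80 TPM in DMSO, 11.4, 12 and 11.7 TPM at 1 h, 11.5, 10.3 and 11.2 TPM at 3 h, 5.39, 5.81 and 5.73 TPM at 6 h, and 3.91, 3.31 and 4 TPM at 24 h. The 1 h and 3 h groups overlapped each other and lay far above DMSO, and the 24 h group lay below it. The rise at 1 h was 2.59-fold (1.20 ± 0.069 SE, n = 3 against 3, adjusted p = 9.66e-09, limma), and the fall of 0.22 at 24 h (adjusted p = 0.00951) was lost without replicate 2 of that group (-0.16).

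The death receptor TNFRSF10A (DR4) did not pass the test at 1 h. Its mean was 45.2 ± 4.74 TPM (SD, n = 3) in DMSO and 49.3 TPM at 1 h (0.12, adjusted p = 0.285, limma), and it fell at 3 h to 34.3 TPM (-0.39, adjusted p = 0.000803). At 6 h its value of -0.19 missed the threshold (adjusted p = 0.0539) and passed it with the replicate number as a block (adjusted p = 0.0327). FAS, the receptor of Fas ligand, had means of 5.55, 9.43, 7.91, 4.64 and 7.68 TPM in DMSO and at 1, 3, 6 and 24 h. It rose by 0.67 at 1 h and 0.45 at 3 h, fell by 0.22 at 6 h and rose by 0.41 at 24 h, and the fall at 6 h was lost without DMSO replicate 1 (-0.16) or 6 h replicate 3 (-0.16).

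PHLDA3, a repressor of AKT signalling, rested on few reads. Its levels were 0.111, 0.0772 and 0.0522 TPM in DMSO, 3.72, 3.03 and 2.48 TPM at 1 h, 1.80, 1.74 and 2.34 TPM at 3 h, 0.129, 0.134 and 0.234 TPM at 6 h, and 0.137, 0.156 and 0.131 TPM at 24 h. These are 9, 7 and 4 reads in the DMSO libraries and 274, 236 and 153 reads at 1 h. The 1 h and 3 h libraries lay apart above all others, and the ratio of means was 38.5 at 1 h. The log2 fold change at 1 h was 1.91 on the TPM + 1 scale, which understates a low gene, and 5.16 when the recovered reads were fitted with voom. No p-value is given for PHLDA3, since it passed the filter only through the groups in which it was high. Its calls are still included in the counts of the 27 genes and of the cell death genes, and in the heat map.

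TP53INP1, a nuclear factor of autophagy and cell death, measured 7.90, 6.46 and 8.10 TPM in DMSO, 21.7, 24.2 and 22.5 TPM at 1 h, 6.03, 6.93 and 6.89 TPM at 3 h, 3.51, 3.53 and 4.18 TPM at 6 h, and 9.90, 9.14 and 9.59 TPM at 24 h. It was high at 1 h, overlapping the DMSO libraries at 3 h, below them at 6 h and above them at 24 h. The values were 1.49 at 1 h (± 0.083 SE, n = 3 against 3, adjusted p = 6.27e-09, limma), -0.15 at 3 h (adjusted p = 0.129), -0.84 at 6 h (adjusted p = 4.03e-07) and 0.32 at 24 h (adjusted p = 0.0031). The 24 h call was lost under median-ratio scaling (0.14).

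The other cell death genes stayed within 1 log2 unit of DMSO. AEN, an apoptosis-enhancing nuclease, rose from 57.5 to 107 TPM at 1 h (0.89) and fell to 36.1 TPM at 24 h (-0.65). ZMAT3, an RNA-binding tumour suppressor, climbed from 2.39 TPM in DMSO through 3.11 and 3.60 to 4.22 TPM at 6 h (0.63). TRIAP1, a mitochondrial protein that restrains apoptosis, rose by 0.36 at 3 h and fell by 0.44 at 24 h. EI24, an autophagy protein of the endoplasmic reticulum, passed the test at 24 h alone, with 109 TPM in DMSO and 89.2 TPM then (-0.29, adjusted p = 5.85e-05, limma).

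Of the 5 genes of DNA repair and nucleotide supply, 2 were higher and 1 lower at 1 h, and 3 were higher and 2 lower at 3 h. At 6 h and again at 24 h, 4 were higher and 1 lower. Of all genes, 15%, 24.9%, 44.4% and 56.1% were higher at 1, 3, 6 and 24 h, and 7.57%, 32%, 24.5% and 15.2% were lower. DDB2, a damage-recognition protein of nucleotide excision repair and the gene with the paired half-sites shown above, rose from 35.2 ± 2.01 TPM (SD, n = 3) in DMSO to 43.1 TPM at 1 h, 44.0 TPM at 3 h, 49.9 TPM at 6 h and 64.8 ± 2.39 TPM at 24 h. Its log2 fold changes were 0.29, 0.32, 0.49 and 0.86, and the step from 6 h to 24 h also passed (0.37, adjusted p = 6.56e-06, limma). XPC, which senses distorted DNA in the same repair pathway, rose at 1 h from 26.9 to 40.0 TPM (0.56) and stayed between 34.9 and 37.0 TPM. POLH, a polymerase that copies past ultraviolet lesions, did not pass the test at 1 h (0.05, adjusted p = 0.587) and reached its highest mean of 12.9 TPM at 6 h (0.64). RRM2B, a p53-inducible subunit of ribonucleotide reductase, was -0.19 at 3 h and rose by 0.24 at 6 h and 0.30 at 24 h. The 3 h call was lost in 4 of 6 fits that left out 1 library, and those at 6 h and 24 h under median-ratio scaling.

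GADD45A, a growth-arrest and DNA-damage protein, was the only gene of this group that was lower at all 4 times. RRM2B was called lower as well at 3 h alone. GADD45A had the following levels. It measured 77.4, 73.9 and 85.8 TPM in DMSO, 65.6, 66.2 and 55.1 TPM at 1 h, 40.1, 40.5 and 44.7 TPM at 3 h, 44.2, 44.1 and 46.7 TPM at 6 h, and 56.7, 62.7 and 61.4 TPM at 24 h. All 12 treated libraries lay below all 3 DMSO libraries. It fell by 0.34 at 1 h and by 0.90, 0.80 and 0.38 at the later times, with the smallest adjusted p at 3 h (7.05e-08, limma).

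Among the 3 tested genes of metabolism and stress, TIGAR, a phosphatase that lowers glycolytic flux, was the most changed. It was at 2.65, 2.36 and 2.67 TPM in DMSO, 7.37, 6.69 and 6.75 TPM at 1 h, 7.52, 8.61 and 7.77 TPM at 3 h, 5.60, 5.71 and 5.78 TPM at 6 h, and 2.63, 2.60 and 2.50 TPM at 24 h. Libraries of 1, 3 and 6 h lay above DMSO, and those of 24 h lay within the DMSO range. The rise was 1.16 at 1 h, 1.33 at 3 h (± 0.064 SE, n = 3 against 3, adjusted p = 2.1e-10, limma) and 0.91 at 6 h, and the value at 24 h was 0.01 (adjusted p = 0.925). FDXR, a reductase of mitochondrial iron-sulfur cluster synthesis, was higher by 0.18 to 0.23 up to 6 h and by 0.41 at 24 h. Its 3 h value turned to -0.04 under spike-in scaling, and its 6 h call was lost under median-ratio scaling. SESN1, a sestrin that restrains mTORC1, was 0.23 at 1 h and -0.23 at 6 h, both past the test.

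The remaining tested genes are CD82 and RPS27L. CD82, a tetraspanin known as a metastasis suppressor, measured 13.6, 14.2 and 15.3 TPM in DMSO, 16.2, 15.7 and 13.8 TPM at 1 h, 14.3, 13.3 and 14.5 TPM at 3 h, 11.5, 10.4 and 12.6 TPM at 6 h, and 6.02, 6.64 and 5.79 TPM at 24 h. The first 3 groups overlapped, the 6 h group lay just below DMSO and the 24 h group far below. It fell by 0.30 at 6 h and by 1.10 at 24 h (± 0.077 SE, n = 3 against 3, adjusted p = 1.68e-08, limma). RPS27L, a ribosomal protein paralogue, had means of 70.7, 84.8, 92.1, 97.0 and 99.0 TPM in DMSO and at 1, 3, 6 and 24 h, with log2 fold changes of 0.26 to 0.48. The 1 h value (adjusted p = 0.0306) no longer passed when any of 4 libraries was left out, or under median-ratio scaling.

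GDF15, PLK2 and TP53I3 were below the filter and are not among the 27. GDF15, a stress cytokine of the TGF-beta family, had 4, 4 and 1 reads in DMSO, 35, 36 and 38 at 1 h, and at most 9 in any later library. PLK2, a polo-like kinase, had 2, 5 and 7 reads in DMSO and 17, 13 and 13 at 1 h. TP53I3, an oxidoreductase, had 2, 4 and 0 reads in DMSO and at most 2 at 1 h, but 18, 18 and 12 at 24 h. GDF15 and PLK2 were thus highest at 1 h and TP53I3 at 24 h. With the filter removed, the TPM + 1 scale gave 1.03 for GDF15 at 1 h (adjusted p = 3.24e-06, limma), 0.19 for PLK2 at 1 h (adjusted p = 0.0006) and 0.36 for TP53I3 at 24 h (adjusted p = 2.82e-05). A voom fit on the recovered reads, an alternative chosen after seeing the data, gave log2 fold changes of 3.71 for GDF15 at 1 h (adjusted p = 5.02e-05), 1.83 for PLK2 at 1 h (adjusted p = 0.00965) and 3.37 for TP53I3 at 24 h (adjusted p = 0.000255).

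**Figure D3:**
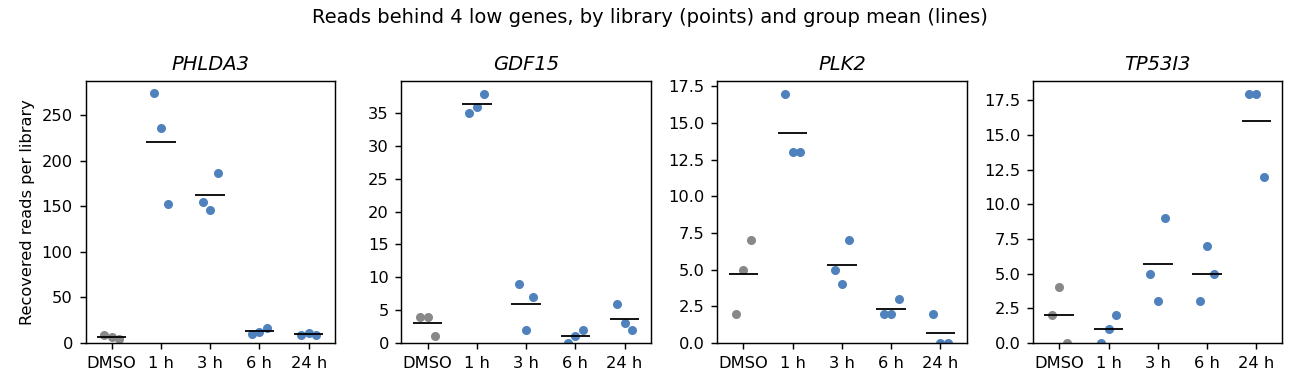
Recovered reads per library for the 4 genes of the lowest level, 1 panel per gene, with points for libraries and horizontal lines at group means, over DMSO and the 4 times of KB528. PHLDA3, GDF15 and PLK2 are highest at 1 h (up to 274, 38 and 17 reads), and TP53I3 is highest at 24 h (up to 18 reads).

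Of 34 listed regulators of p53, 30 were tested, and the higher and lower genes numbered 8 and 1 at 1 h, 8 and 7 at 3 h, 17 and 4 after 6 h, and 21 and 1 after 24 h, with medians of 0.10, 0.00, 0.20 and 0.29. Over all genes, 15%, 24.9%, 44.4% and 56.1% were higher at these times, 7.57%, 32%, 24.5% and 15.2% were lower, and the medians were 0.043, -0.042, 0.117 and 0.227. SIRT1, a deacetylase of p53, rose by 0.58 at 1 h and 1.19 at 3 h, from 6.89 TPM in DMSO to 17.0 TPM. PML, the scaffold of the nuclear bodies where p53 is modified, fell by 1.08 at 3 h and 0.61 at 6 h. EP300, the gene of the inhibited enzyme, went from 22.1 ± 4.97 TPM (SD, n = 3) in DMSO to means of 30.2, 29.4, 48.4 and 32.3 TPM at the 4 times, with log2 fold changes of 0.46, 0.40, 1.12 and 0.55. CREBBP, the gene of CBP, was 16.6 TPM in DMSO and 41.8 TPM at 6 h (1.30). Leaving out 1 library at a time ended the 1 h calls of EP300 and CREBBP in 5 of 6 fits each and the 3 h call of EP300 in 4 of 6.

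A further 41 p53 targets were listed, of which 39 were in the table and 26 were tested. At 1 h, 10 were higher and 2 lower (median 0.10), at 3 h 7 and 9 (-0.07), at 6 h 6 and 12 (-0.04) and at 24 h 13 and 7 (0.14). Over all genes, 15% were higher and 7.57% lower at 1 h (median 0.043), and 24.9% and 32% at 3 h (-0.042). The shares were 44.4% and 24.5% at 6 h (0.117), and 56.1% and 15.2% at 24 h (0.227). The median of the 26 was thus above that of all genes at 1 h and below it at 3 h, 6 h and 24 h. BBC3, the gene of the death-promoting BCL2 relative PUMA, rose from 6.95 to 32.2 TPM at 1 h (2.05) and was below DMSO at 6 h, at 2.29 TPM (-1.27). SESN2, a sestrin like SESN1, rose by 0.91 at 1 h and 0.55 at 3 h. In the other direction, IGFBP3, an insulin-like growth factor binding protein, fell from 677 TPM to 105 TPM at 6 h (-2.68), and SFN, the cell-cycle protein 14-3-3 sigma, fell from 40.1 to 15 TPM (-1.37). APAF1, the core of the apoptosome, rose by 1.08 at 24 h, from 2.52 to 6.42 TPM.

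p21 is known to act on cell-cycle genes through the DREAM repressor complex, and 25 genes listed as its targets were all tested. At 1 h, 2 were higher and 7 lower (median -0.09), and at 3 h, 3 were higher and 13 lower (median -0.10), beside CDKN1A levels above those in DMSO. At 6 h, 22 were higher and 0 lower (median 0.69), and at 24 h, 23 were higher and 0 lower (median 0.38), beside CDKN1A levels below those in DMSO. Of all genes, 15% were higher and 7.57% lower at 1 h (median 0.043), and 24.9% were higher and 32% lower at 3 h (median -0.042). At 6 h, 44.4% of all genes were higher and 24.5% lower (median 0.117). At 24 h, 56.1% were higher and 15.2% lower (median 0.227). BUB1B, a mitotic checkpoint kinase, fell by 0.71 at 3 h, whereas KIF20A and KIF23, kinesins of cell division, rose by 0.93 and 0.90 at 6 h. CDC25A, a phosphatase that promotes entry into S phase, rose by 0.39 at 1 h and 0.87 at 3 h. Whether CDKN1A has a part in these changes was not tested.

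**Figure D4:**
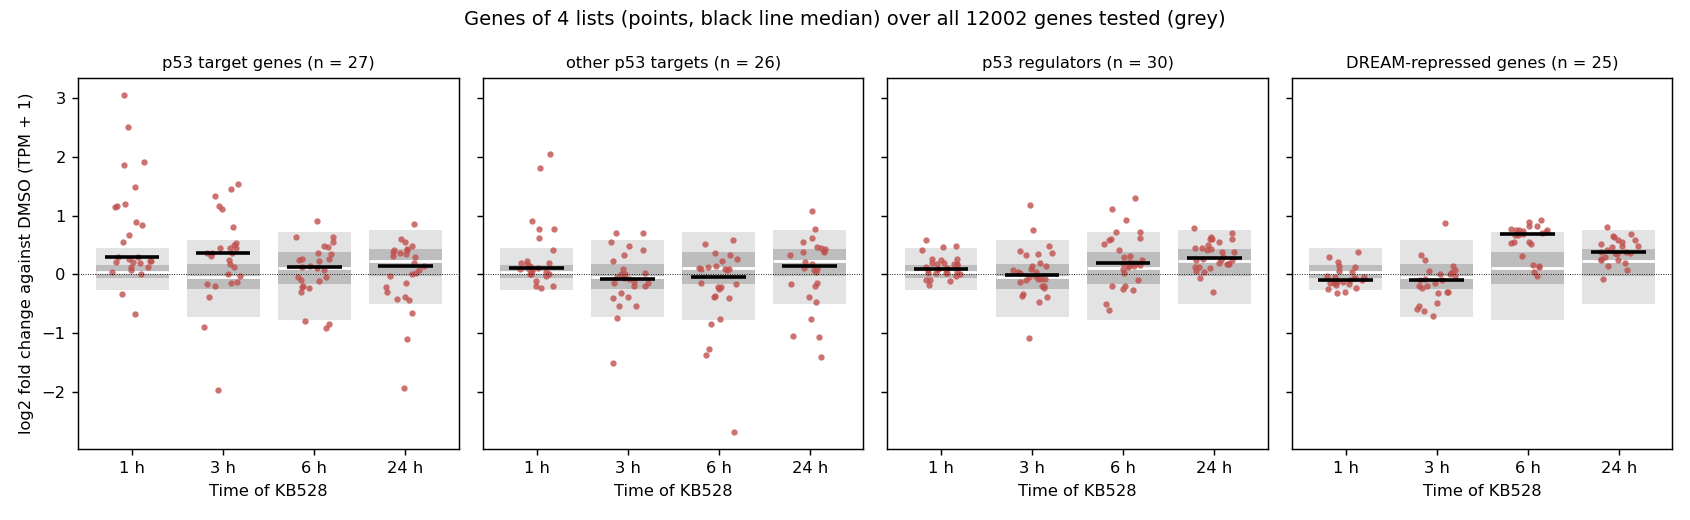
Log2 fold change against DMSO, on the TPM + 1 scale, at each time of KB528 for the genes of 4 lists, with 1 panel per list, points for genes, black lines for the list's median and grey bands for the quartiles and the 5th to the 95th percentile of all genes tested, with their median in white. The median of the p53 targets is 0.29 at 1 h and 0.12 at 6 h, whereas that of the DREAM-repressed genes is -0.09 at 1 h and 0.69 at 6 h.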

How the data were processed

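Polyadenylated RNA of 15 RPMI-8226 libraries was sequenced as strand-specific libraries, per the labels' protocols. STAR, featureCounts and build hg19 are named in the submitters' processing notes, without versions. TPM values were deposited by the authors in 1 table of 26364 gene rows and 92 spike-in rows, and column names were matched to sample titles by time and replicate number, the DMSO columns being named there as untreated at 0 h.

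Members and lists were chosen with earlier results of these data known. The 12002 genes whose mean reached 1 TPM, without spike-in rows, entered the test on the scale of log2(TPM + 1), by limma 3.58.1 under R 4.3.3 (lmFit, contrasts.fit, eBayes with a variance trend), all 15 libraries in 1 fit. P-values were adjusted over all genes within each comparison by the Benjamini-Hochberg method at 0.05. For low genes the added 1 TPM shrinks a fold change, and ratios in the text are ratios of mean TPM. Values in every library are given for genes that changed by at least 1 on the log2 scale and passed the test at any time, and for GADD45A, which was chosen after its values were seen. From other lists, genes were named from the 3 largest called changes per list, direction and time, and some genes that these rules name are not reported here.

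Reads were recovered as the smallest whole numbers that give the TPM ratios between libraries, in 22512 of 22516 rows above 0 (99.98%, within 0.02 reads). A factor common to all libraries would not be seen. Counting limits the precision of low genes. On simulated data with 12002 genes, 34, 46, 50 and 50 of 50 genes changed 1.25-, 1.5-, 2- and 4-fold were recovered, and 9 of 189 calls were false. Only these genes were changed, at 1 h, and noise was drawn independently for each gene, without shifts shared within a library. In the data, 1802 genes were higher and 908 lower at 1 h, so these rates need not hold for the calls reported here.

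Libraries with the same replicate number deviated together in 1 of 10 pairs of groups, DMSO and 6 h (r = 0.14, 0.15 and 0.15). The block on the replicate number is given beside a result only there. Alternatives were another pseudocount, other filters, 3 other scalings, no variance trend, only the groups compared, the replicate block, each library left out, and voom on the recovered reads, which was chosen after seeing the data.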

Additional observations from a re-analysis of the deposited data

Results flagged for a closer look

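Of the p53 targets, 9 were called in opposite directions at different times against DMSO, and the difference between those times itself passed the test (limma, adjusted p under 0.05). How many of all genes tested meet this rule was not computed, so the 9 cannot be set against a background share. Differences are later minus earlier, on the log2 scale. CDKN1A was higher at 1 h and 3 h and lower at 6 h and 24 h, and it differed by -3.95 between 1 h and 6 h, -2.45 between 3 h and 6 h, -4.97 between 1 h and 24 h and -3.47 between 3 h and 24 h. PLK3 was higher up to 6 h and lower at 24 h, with differences of -1.57 from 1 h, -0.92 from 3 h and -0.69 from 6 h. TNFRSF10D had the same course, with -1.43, -1.34 and -0.49. AEN, higher at 1 h and 3 h and lower at 24 h, differed by -1.54 and -1.19, and TRIAP1 by -0.66 and -0.80 over the same times.

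FAS and TP53INP1 turned a second time. FAS differed by -0.89 between 1 h and 6 h, by -0.66 between 3 h and 6 h and by 0.62 between 6 h and 24 h. TP53INP1 differed by -2.33 between 1 h and 6 h and by 1.16 between 6 h and 24 h. RRM2B was lower at 3 h and higher later, by 0.43 at 6 h and 0.49 at 24 h relative to 3 h. SESN1 differed by -0.47 between 1 h and 6 h. Of the calls against DMSO behind these turns, those of RRM2B at 3 h, FAS at 6 h, PLK3 at 6 h and TNFRSF10D at 24 h were lost when single libraries were left out.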

How the results depend on the processing

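Of 255 log2 fold changes of single genes (the p53 targets and the named genes of the other lists), 218 kept their direction and call in every fit that left out 1 library and 37 did not. With libraries left out, the count lower at 3 h ranged from 3 to 7 (7 without DMSO replicate 2), the count higher at 3 h against 1 h from 1 to 3, and the median from 0.26 to 0.33 at 1 h, 0.30 to 0.36 at 3 h and 0.08 to 0.23 at 24 h (0.08 without DMSO replicate 2). Over all 12002 genes these counts ranged from 3252 to 4303 (4303 without DMSO replicate 2) and from 1503 to 1761. Spike-in scaling ended the call of 87 of the 255. Under it, counts of higher and lower genes were 11 and 1 at 1 h, the count higher was 6 at 3 h, the count lower 3 at 6 h, and both were 3 at 24 h. The count higher was then 0 at 3 h against 1 h, 12 at 6 h against 3 h (4 lower) and 1 at 24 h against 6 h. Over all 12002 genes, the counts higher in these steps were 81, 7362 (232 lower) and 1640. Medians of the p53 targets against DMSO were 0.23, 0.14, 0.31 and 0.12 at 1, 3, 6 and 24 h. CCNG1 turned to -0.10 and FDXR to -0.04 at 3 h, FDXR to -0.01 at 24 h against 6 h, and at 6 h against 3 h CCNG1 to 0.24, PLK3 to 0.18, TRIAP1 to 0.17 and CD82 to 0.12. Under median-ratio scaling, 11 were lower at 6 h, 4 were higher at 3 h against 1 h and 4 at 6 h against 3 h, medians at 1, 6 and 24 h were 0.24, -0.02 and 0.01, and TIGAR (-0.14) and SESN1 (-0.17) at 24 h and FDXR (-0.10) at 6 h against 3 h turned. Of all 12002 genes it called 4504 lower at 6 h, and 2939 and 3103 higher in those steps. Under voom, 10 p53 targets were lower at 6 h, 5 higher at 3 h against 1 h and 4 at 6 h against 3 h, with medians of 0.40, 0.04 and 0.20 at 3, 6 and 24 h. Of all 17452 genes in that fit, 4739 were lower at 6 h, and 3304 and 3771 were higher in those steps. Without a filter, 1 p53 target was higher at 3 h against 1 h, beside 1799 of all 22424 genes, and medians were 0.28 at 3 h and 0.11 at 24 h. With a filter of 5 TPM, medians were 0.26 at 1 h and 0.32 at 3 h. With spike-ins out of the total, 4 were higher at 3 h against 1 h, beside 2336 of all 12002 genes, and the median at 3 h was 0.39. A pseudocount of 0.1 TPM gave a median of 0.21 at 24 h. The replicate block left counts within 1.5 times and moved 6 of the 255 calls. MDM4 passed at 1 h (0.22) and 3 h (-0.17), BTG2 at 24 h (0.14), TRIAP1 at 3 h against 1 h (0.14) and TNFRSF10A at 6 h (-0.19), and CCNG1 at 3 h (0.12) was lost. The cause of these shifts was not tested.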
